A study of Mus musculus with 11 samples.

Results

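Apolipoproteins are the proteins that coat the lipid particles of the blood. This account follows 10 of their genes in mouse liver, chosen by name and read by every probe set that the platform annotation assigns to them: Apoa1, Apoa2, Apoa4, Apoa5, Apob, Apoc1, Apoc2, Apoc3, Apoe and Apom. They were measured by 15 of the 22690 probe sets on the array (10 of 12393 genes with a probe set of 1 symbol), with 4 probe sets for Apoa1, 2 each for Apoa4 and Apom, and 1 for each of the other 7 genes. Liver RNA came from 11 male mice of a mixed background, with 1 array per mouse. The groups were Akt1 double transgenic mice fed a high-fat diet (n = 4, "transgenic"), wild-type mice fed the same high-fat diet (n = 4, "high-fat wild type") and wild-type mice fed a normal diet (n = 3, "normal-diet wild type"). All 11 mice had received doxycycline, the drug used to switch inducible transgenes on, for 3 weeks. The labels record hypertrophy of muscle in the transgenic mice alone. The promoter that drives the Akt1 transgene is not given in the sources used here. No transgenic mice on the normal diet were analysed here, so the transgene was compared only within the high-fat diet and the diet only within wild-type mice.

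Apolipoproteins carry triglyceride and cholesterol between liver, intestine and other tissues. Apob is the structural protein of the very-low-density lipoproteins that the liver secretes, and Apoa1 and Apoa2 are the main proteins of high-density lipoproteins. The smaller C apolipoproteins and Apoa5 set how fast lipoprotein lipase clears triglyceride, Apoe binds the receptors that take remnant particles back up, and Apom carries sphingosine-1-phosphate on high-density lipoproteins. Apoa4, a protein of intestinal lipid absorption, is also made by mouse liver, where it is known to rise with fat load.

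The values are MAS5 signal, a linear brightness that was scaled to the same overall level on each array. Each gene was tested by its brightest probe set with limma over 7924 genes, and a change was called at a Benjamini-Hochberg adjusted p under 0.05. Log2 differences carry limma's standard error. Median signal was 97.2 to 118 on the 11 arrays. Transgenic arrays 3 and 4 stood apart at the bright end, where the top signal was 42426 on array 3 and 43273 on array 4, against 27780 to 35450 on the other 9 arrays. Array 3 also had the lowest poly-A control spike signal (140, against 334 to 588) and the highest Gapdh 3′ to 5′ signal ratio (0.823, against 0.669 to 0.768). Liver identity was clear on all arrays: the 10 hepatocyte markers measured summed to signals of 160699 to 209013 in transgenic, 154958 to 168442 in high-fat wild-type and 133779 to 167120 in normal-diet wild-type mice. Skeletal muscle markers summed to no more than 328.5 on any array. Akt1 signal in liver did not pass the test in transgenic against high-fat wild-type mice (log2 difference 0.08 ± 0.13, limma adjusted p = 0.830).

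The genes lie at 5 places in the genome. Apoa1, Apoc3, Apoa4 and Apoa5 are neighbours on chromosome 9 and Apoe, Apoc1 and Apoc2 on chromosome 7, while Apoa2, Apob and Apom stand on chromosomes 1, 12 and 17. RefSeq promoter windows (GRCm38.p6, 250 bases before to 50 after a transcript start) were found for 8 of the 10 genes, not for Apoc1 and Apoc3. Those of Apom and Apoc2 are shown because these genes passed the test, and that of Apoa4 because its signal varied most. All are written 5′ to 3′ on the strand of the gene, with motif matches in capitals. Apom lies at chr17:35131752-35132051 (minus strand), Apoc2 at chr7:19677892-19678191 (minus strand) and Apoa4 at chr9:46240594-46240893 (plus strand).
Apom: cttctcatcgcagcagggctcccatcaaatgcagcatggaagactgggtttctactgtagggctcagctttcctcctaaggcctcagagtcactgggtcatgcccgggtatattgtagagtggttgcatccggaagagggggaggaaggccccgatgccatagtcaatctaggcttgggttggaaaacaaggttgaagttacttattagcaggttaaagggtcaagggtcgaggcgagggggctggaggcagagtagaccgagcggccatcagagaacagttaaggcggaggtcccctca
Apoc2: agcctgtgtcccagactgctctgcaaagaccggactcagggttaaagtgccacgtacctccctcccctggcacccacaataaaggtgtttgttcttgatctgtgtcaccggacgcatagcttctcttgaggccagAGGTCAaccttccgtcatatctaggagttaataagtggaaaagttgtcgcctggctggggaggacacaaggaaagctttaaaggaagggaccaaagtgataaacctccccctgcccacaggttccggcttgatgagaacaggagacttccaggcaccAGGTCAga
Apoa4: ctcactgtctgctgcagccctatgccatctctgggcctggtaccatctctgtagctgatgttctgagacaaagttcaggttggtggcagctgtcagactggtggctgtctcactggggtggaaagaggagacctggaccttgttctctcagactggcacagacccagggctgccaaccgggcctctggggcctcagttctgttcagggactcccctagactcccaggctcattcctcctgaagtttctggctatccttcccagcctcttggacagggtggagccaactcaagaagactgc
The motifs searched on both strands were the HNF4A core CAAAGTC, the nuclear receptor half-site AGGTCA and the box known as CCAAT. They do not overlap each other in these windows. The Apoc2 window held AGGTCA with first bases at -115 and 43 from the transcript start, and the Apom and Apoa4 windows held none of the 3 motifs. Among the 8 genes with a window, CAAAGTC was found in 0 (4.44% of all 32851 windows), AGGTCA in Apoa2 and Apoc2 (16.3% of all windows) and CCAAT in Apoa2 (37.4%). A match is a description of the letters, not evidence of binding.

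The first comparison asked how the liver of mice with Akt1-driven muscle growth differed from that of wild-type mice on the same high-fat diet. Among the apolipoproteins Apom rose and no other passed the test: 1 of 10 members was called, beside 0.366% of all genes tested. The differences of the other 9 ran from -0.20 to 0.32 on the log2 scale. Apom also was the only member whose transgenic and high-fat wild-type arrays did not overlap, beside 8.40% of all genes.

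Apom encodes a lipocalin of high-density lipoprotein that is made mainly in liver and kidney. Its brighter probe set read 7497, 7554, 6291 and 7239 on transgenic arrays 1 to 4, against 4154, 4407, 4511 and 4051 on high-fat wild-type arrays 1 to 4. Normal-diet wild-type arrays 1 to 3 read 4873, 4394 and 7175. All 4 transgenic arrays lay above all 4 high-fat wild-type arrays, and normal-diet array 3 lay inside the transgenic range. Means were 7145 ± 586 in transgenic, 4281 ± 214 in high-fat wild-type and 5481 ± 1486 in normal-diet wild-type mice (SD, n = 4, 4 and 3). The rise was 0.74 ± 0.14 on the log2 scale, a 1.67-fold difference with a 95% interval of 1.36 to 2.04 (limma adjusted p = 0.0482, rank 22 of 7924 genes by p). An exact two-sided permutation test over the 8 arrays gave p = 0.0286, the smallest it can give.

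The dimmer Apom probe set read 5562, 6307, 5626 and 7160 on the transgenic arrays, against 3307, 4305, 3975 and 3870 on the high-fat wild-type arrays. The transgenic arrays again all lay above. Its difference was 0.67 ± 0.13, with limma adjusted p = 0.0604 over all 20380 probe sets, where the brighter set had 0.0569. The probe sets tracked each other over the 11 arrays (Pearson r = 0.921, Spearman rho = 0.900, adjusted permutation p = 0.0002 and 0.0008, and r = 0.920 without the 2 arrays farthest from the median). With group means removed r was 0.675, so part of that agreement is the group difference that both share. The Apom call lay close to the threshold: it was kept in 9 of 25 alternative settings, with differences of 0.52 to 0.82 and adjusted p of 0.0251 to 0.232 over all 25. Leaving out 1 array ended it for 8 of 11 arrays (each transgenic array, high-fat arrays 1, 3 and 4, and normal-diet array 1), with adjusted p of 0.0650 to 0.151 in those 8.

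**Figure D1:**
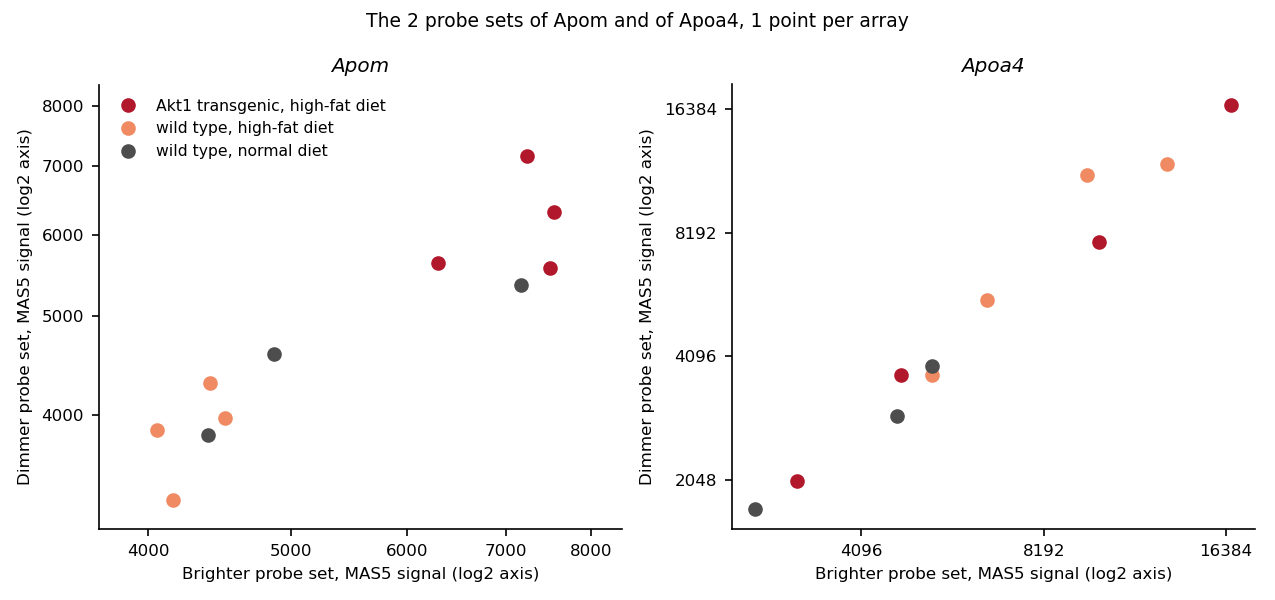
Signal of the dimmer against the brighter probe set of Apom (left) and Apoa4 (right), with 1 point per array on log2 axes and colours for the 3 groups. The 4 transgenic points of Apom lie to the upper right of all 4 high-fat wild-type points, and for Apoa4 the groups mix along one line.

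Apoa1 and Apoa2, the main proteins of high-density lipoprotein, were among the brightest signals in the liver. Apoa1 read 29883, 31261, 42426 and 43273 on the transgenic arrays, against 31278, 30441, 34787 and 31563 on the high-fat wild-type and 30982, 27694 and 32245 on the normal-diet wild-type arrays. Transgenic arrays 1 and 2 lay near the wild-type values, and arrays 3 and 4 lay above all of them. Apoa1 differed by 0.18 ± 0.13 between transgenic and high-fat wild-type mice (adjusted p = 0.564, limma), and its other 3 probe sets by 0.22 to 0.33, none called. Apoa2 read 25772, 24636, 37317 and 37827 on the transgenic arrays, against 23263, 23926, 28218 and 23502 on the high-fat wild-type and 24346, 20740 and 25475 on the normal-diet wild-type arrays. Again arrays 3 and 4 alone stood clear of the wild-type range. Its difference of 0.32 ± 0.15 did not pass (limma adjusted p = 0.369). It rested on arrays 3 and 4: without them it was 0.032 (adjusted p = 0.943). Without arrays 1 and 2 it was 0.61 (limma adjusted p = 0.0349). That fit was added after seeing the data and leaves out the 2 low transgenic arrays, so a larger difference was built in. Its p is no evidence of a rise.

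Apob, which gives very-low-density lipoprotein its backbone, read 12942, 11910, 25807 and 20174 on the transgenic arrays, against 14800, 15054, 16939 and 12247 on the high-fat wild-type and 8352, 17025 and 18300 on the normal-diet wild-type arrays. Transgenic arrays 3 and 4 lay above all wild-type arrays, arrays 1 and 2 lay inside the wild-type range, and the lowest value was on normal-diet array 1. The transgenic difference was 0.20 ± 0.28 (adjusted p = 0.790, limma) and the diet difference 0.09 ± 0.30 (adjusted p = 0.964). The within-group SD of Apob was 0.47 on the log2 scale, above that of 98.0% of the probe sets nearest to it in brightness.

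Apoc2 is the cofactor that activates lipoprotein lipase, and of the 10 members it had the smallest p by diet, without being called. It read 11369, 10260, 12554 and 11338 on the transgenic arrays and 11006, 11045, 8112 and 10202 on the high-fat wild-type arrays, against 6651, 7748 and 6843 on the normal-diet wild-type arrays. Every array from a high-fat diet lay above every normal-diet array, and the transgenic and high-fat wild-type arrays overlapped. The share of all genes that separate in this way was not counted. Means were 11380 ± 937 in transgenic, 10091 ± 1376 in high-fat wild-type and 7080 ± 586 in normal-diet wild-type mice (SD, n = 4, 4 and 3).

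In the comparison of diets among wild-type mice, 0 of 10 members were called by limma, as were 0% of all genes tested. At an unadjusted p under 0.05 by brightest probe set, there were 2 members (Apoc2 higher, Apom lower) beside 7.02% of all genes. Apoc2 differed by 0.50 ± 0.12, a 1.42-fold difference with an interval of 1.18 to 1.70 (limma p = 0.00127, rank 26 of 7924, adjusted p = 0.375; exact permutation p = 0.0571, where 4 against 3 arrays allow 0.0286 at the least). It was the only member whose diet groups did not overlap, beside 7.91% of all genes. Apom differed by -0.32 ± 0.15 by diet (limma adjusted p = 0.693), with normal-diet array 3 the highest of the 7. Its dimmer probe set differed by -0.24 ± 0.14 (limma unadjusted p = 0.101). Between transgenic and high-fat wild-type mice Apoc2 differed by 0.18 ± 0.11 (adjusted p = 0.510).

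In the transgenic against the normal-diet wild-type mice, which differ in both transgene and diet, Apoc2 rose by 0.68 ± 0.12, or 1.61-fold with an interval of 1.34 to 1.93 (limma adjusted p = 0.0162, exact permutation p = 0.0286). It was the 1 of 10 members called, beside 2.08% of all genes. By brightest probe set, it was also the 1 member whose arrays in the 2 groups did not overlap, beside 15.6%. The call was lost without normal-diet array 1 (adjusted p = 0.0575), normal-diet array 3 (0.0585) or transgenic array 4 (0.0538), and stayed past the threshold without each of the other 8. This comparison shares its arrays with the other two, so its values are no separate evidence. At an unadjusted p under 0.05, 5 of 10 members were higher (Apoa2, Apoc1, Apoc2, Apoe and Apom), beside 9.96% of all genes. So were 13 of 20 other hepatocyte secreted proteins and 6 of 9 other apolipoprotein genes, so such a share was not particular to the members. Apom differed by 0.41 ± 0.15 here (adjusted p = 0.166), Apoa2 by 0.39 ± 0.16 (0.222), Apoe by 0.27 ± 0.11 (0.231) and Apoc1 by 0.25 ± 0.11 (0.256). The dimmer Apom probe set differed by 0.43 ± 0.14, with no overlap of the 2 groups (limma adjusted p = 0.179 over all 20380 probe sets).

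**Figure D2:**
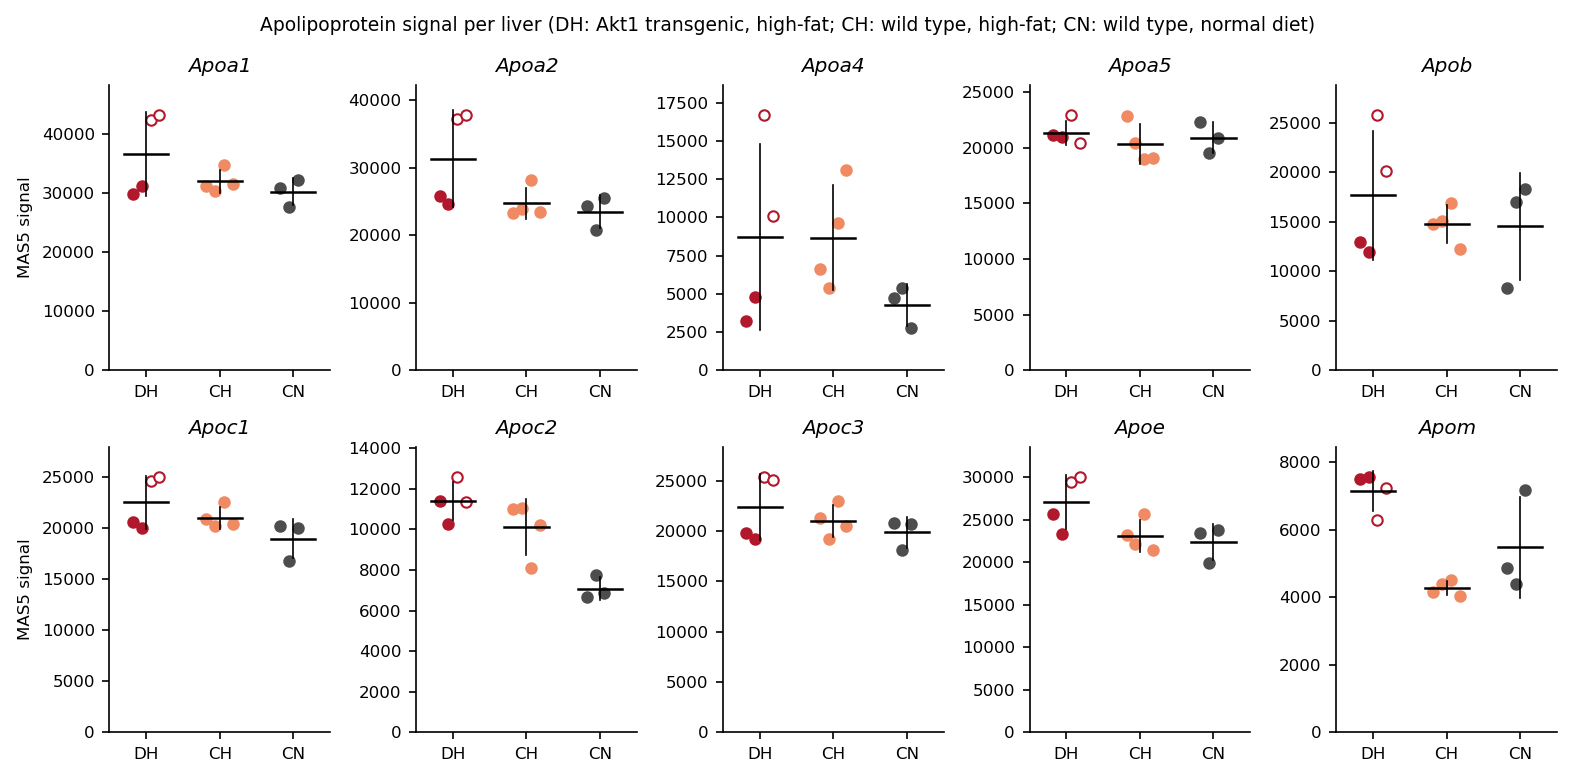
MAS5 signal for each of the 10 genes (brightest probe set) on every array, by group, with the mean as a bar and 1 SD as a line; open circles mark transgenic arrays 3 and 4. Apom separates the transgenic from the high-fat wild-type arrays, Apoc2 separates both high-fat groups from the normal diet, and in Apoa1 and Apoa2 the 2 open circles lie above all other arrays.

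Apoc1 and Apoc3, which slow the clearance of triglyceride-rich particles, showed small differences. Apoc1 read 20522, 19942, 24548 and 24926 on the transgenic arrays, against 20895, 20124, 22493 and 20376 on the high-fat wild-type and 20148, 16730 and 19936 on the normal-diet wild-type arrays. Apoc3 read 19846, 19242, 25338 and 25028 on the transgenic arrays, against 21344, 19179, 22982 and 20514 on the high-fat wild-type and 20792, 18124 and 20696 on the normal-diet wild-type arrays. In both genes transgenic arrays 3 and 4 held the highest values and the groups otherwise overlapped. The transgenic differences were 0.09 ± 0.10 for Apoc1 and 0.08 ± 0.11 for Apoc3, and the diet differences 0.15 ± 0.11 and 0.08 ± 0.12 (limma adjusted p of 0.714 to 0.940 over these 4). Their 95% intervals in the transgenic comparison ran from 0.918-fold to 1.24-fold for Apoc1 and from 0.897-fold to 1.25-fold for Apoc3.

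Apoe, the ligand of the remnant receptors, is made by hepatocytes and also by macrophages. It read 25686, 23255, 29439 and 29966 on the transgenic arrays, against 23136, 22190, 25680 and 21417 on the high-fat wild-type and 23439, 19936 and 23786 on the normal-diet wild-type arrays. Transgenic arrays 1, 3 and 4 lay above all high-fat wild-type arrays, array 1 by a narrow margin, and array 2 lay inside their range. Its difference was 0.23 ± 0.10 between transgenic and high-fat wild-type mice (limma adjusted p = 0.371, exact permutation p = 0.0571) and 0.05 ± 0.11 by diet (adjusted p = 0.960). The Kupffer cell and macrophage markers (14 on the array, 13 tested) summed to signals of 6162 to 16747 in transgenic, 4947 to 12246 in high-fat wild-type and 3625 to 6740 in normal-diet wild-type mice. None of them was called between transgenic and high-fat wild-type mice or by diet, and in transgenic against normal-diet mice Folr2 (1.53 ± 0.34, adjusted p = 0.0447) and Cd5l (2.02 ± 0.46, adjusted p = 0.0456), both Kupffer cell markers, rose. Their part in the Apoe values was not tested. In whole liver, a change in the number of cells of a type and a change in RNA per cell cannot be told apart.

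Apoa4 varied most. Its brighter probe set read 3215, 4767, 16703 and 10118 on the transgenic arrays, against 6610, 5358, 9657 and 13110 on the high-fat wild-type and 4699, 5364 and 2741 on the normal-diet wild-type arrays. The transgenic arrays spanned values below and above most wild-type ones, and the high-fat wild-type arrays lay above the normal-diet ones but for 1 pair (5358 against 5364). Apoa4 differed by 1.00 ± 0.49 by diet (limma adjusted p = 0.742), by -0.20 ± 0.46 between transgenic and high-fat wild-type mice (adjusted p = 0.885) and by 0.80 ± 0.49 between transgenic and normal-diet mice (adjusted p = 0.425). The 95% interval of the diet difference ran from 0.946-fold to 4.20-fold.

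The dimmer Apoa4 probe set read 2038, 3692, 16768 and 7769 on the transgenic arrays, against 5614, 3692, 11294 and 12060 on the high-fat wild-type and 2939, 3888 and 1745 on the normal-diet wild-type arrays. By diet it differed by 1.43 ± 0.60 (limma unadjusted p = 0.0332, adjusted p = 0.804 over all 20380 probe sets). It followed the brighter set closely (Pearson r = 0.987, Spearman rho = 0.989 over 11 arrays, adjusted permutation p = 5e-05 for each), so the array-to-array spread was shared by both measurements. Within-group SD on the log2 scale was 0.79 and 1.00 for the 2 sets, and above that of 98.0% of the probe sets nearest in brightness. Of 7 intestinal markers on the array, only Fabp2, which was bright in liver, lay above the filter on dim probe sets. The 7 markers summed to 3265 to 6189 in transgenic, 4379 to 5081 in high-fat wild-type and 2561 to 4165 in normal-diet wild-type mice. The markers Vil1, Lct, Cdx1, Cdx2, Mep1b and Slc5a1 had signals of at most 61.1 on any array. The part of intestinal cells in the Apoa4 values was not tested.

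Apoa5, an activator of triglyceride clearance made mainly in liver, was the steadiest member. It read 21099, 20948, 22929 and 20448 on the transgenic arrays, against 22833, 20415, 18939 and 19116 on the high-fat wild-type and 22298, 19551 and 20842 on the normal-diet wild-type arrays. The groups overlapped fully. Its transgenic difference was 0.07 ± 0.085 and its diet difference -0.04 ± 0.092 (limma adjusted p = 0.739 and 0.952), with a within-group SD of 0.10.

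**Figure D3:**
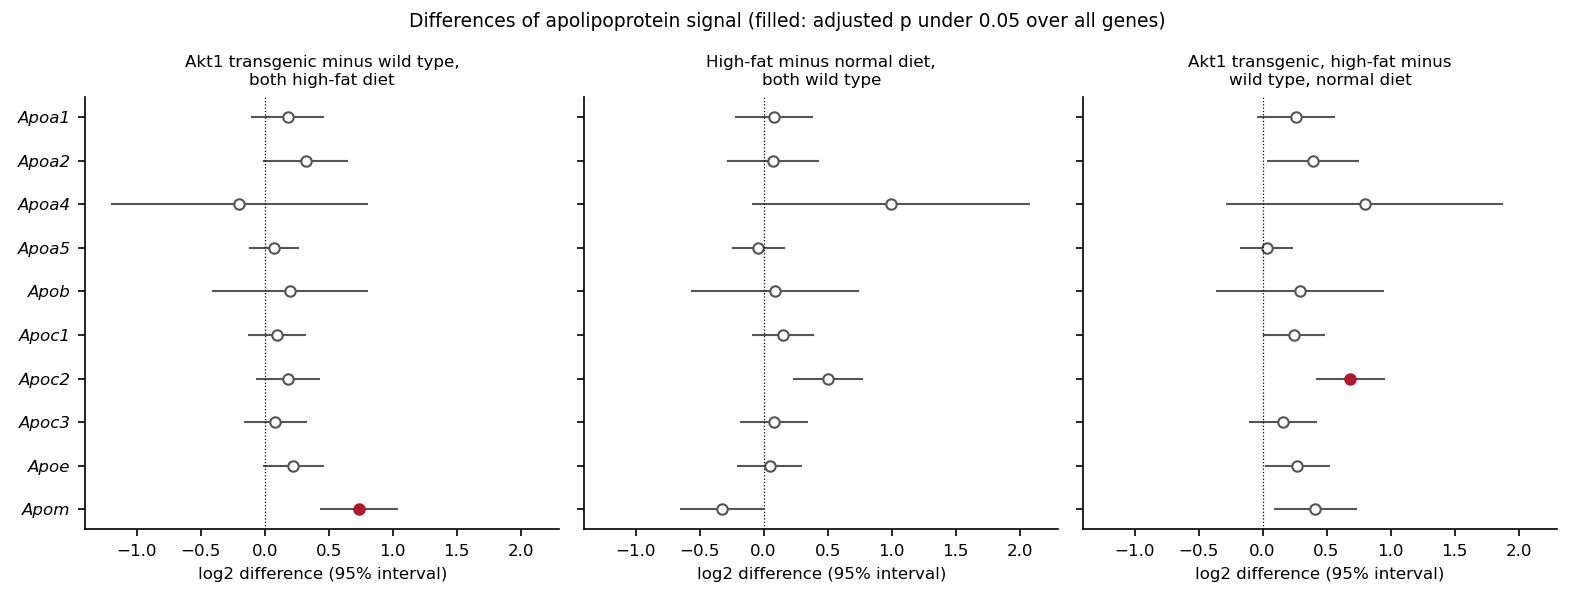
Log2 difference (point) and 95% interval (line) of each gene in the 3 comparisons, from the fit over all 11 arrays; filled points passed the threshold. Apom between transgenic and high-fat wild-type mice (0.74) and Apoc2 between transgenic and normal-diet wild-type mice (0.68) are the 2 filled points, and Apoa4 and Apob have the widest intervals.

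Of the 10 genes, 7 (10 of the 15 probe sets) fell in the brightest 1% of probe sets, with a mean signal of at least 11797: Apoa1, Apoa2, Apoa5, Apob, Apoc1, Apoc3 and Apoe. Apoa4, Apoc2 and Apom lay below it. The brightest probe set of Apoa1 ranked first or second on every array, was the top signal on 4 arrays and stood behind Fabp1, a fatty acid-binding protein of hepatocytes, on the other 7. Saturation itself was not measured, because the values came without probe-level data. The mean of the 217 other probe sets in the brightest 1% was 0.14 and 0.19 above its 11-array mean on transgenic arrays 3 and 4, against -0.16 to 0.05 on the other 9 arrays.

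The signal of 5 genes moved with that mean over the 11 arrays. Pearson r was 0.954 for Apoa1, 0.939 for Apoa2, 0.950 for Apoc1, 0.968 for Apoc3 and 0.922 for Apoe (adjusted permutation p of 0.000133 to 0.00034 over 10 members), with Spearman rho of 0.718 to 0.955. Without the 2 arrays farthest from the median r was 0.767 to 0.929. Group means were not removed, and how many other bright probe sets had such r was not counted. Whether such r is particular to apolipoproteins was therefore not tested. Apoa5 (0.242), Apob (0.476), Apoa4 (0.571), Apoc2 (0.354) and Apom (0.397) had lower r, with adjusted p of at least 0.11. With each array centred on that mean, Apom still differed by 0.65 between transgenic and high-fat wild-type mice, without passing the threshold (adjusted p = 0.0859), and Apoc2 by 0.56 between transgenic and normal-diet mice (0.0640). The part of the bright end in the members' differences was not tested further.

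**Figure D4:**
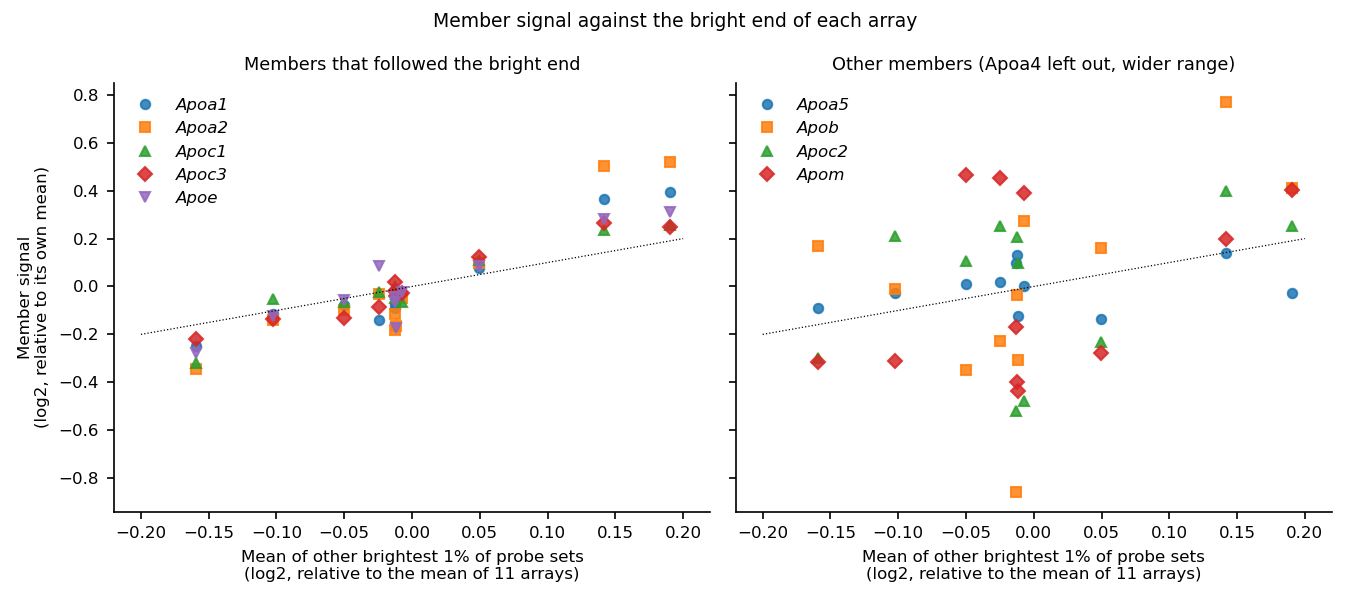
Log2 signal of each gene relative to its own mean, against the mean log2 signal of the other brightest 1% of probe sets, for the 11 arrays; the dotted line has slope 1. Apoa1, Apoa2, Apoc1, Apoc3 and Apoe (left) follow the line and lie above it on the 2 rightmost arrays, transgenic arrays 3 and 4, while Apoa5, Apob, Apoc2 and Apom (right) scatter.

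Seen as a family, the members' median log2 difference was 0.18 between transgenic and high-fat wild-type mice, with 9 of 10 above 0, and the same over all genes was 0.00, with 50.2% above 0. That direction flipped in part with the scaling: 3 of 10 were above 0 (median -0.04) after centring on 20 other hepatocyte secreted proteins, which moves every gene by -0.22, and 5 of 10 after quantile normalization (median 0.03). The secreted proteins were themselves mostly above 0 here (19 of 20, median 0.22), so the flip under that centring follows from subtracting their shift. After centring on the other bright probe sets, 7 of 10 members stayed above 0 (median 0.096). Without transgenic arrays 3 and 4 the members' median was -0.01. By diet the median was 0.08 with 8 of 10 above 0 (all genes 0.01 and 51.1%). Between transgenic and normal-diet mice it was 0.28 with 10 of 10 above 0 (all genes 0.00 and 50.6%). After centring on the secreted proteins 5 of 10 were above 0 (median 0.0088, every gene moved by -0.27). The count was 9 of 10 after centring on the other bright probe sets (median 0.16) and 8 of 10 after quantile normalization (median 0.07).

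Over 11 arrays, the genes whose log2 signal was most like that of Apom, out of 7914 searched, were Atp11a (r = 0.920), Snapc2 (0.918) and Tent5c (0.903). Those most like Apoa4 were Hdgfl2 (0.905), Pex16 (0.899) and Xrn2 (0.898), and those most like Apob were Bdh1 (0.929), Ccdc50 (0.925) and Ube3a (0.913). They were chosen for that r, so no test is given. With group means removed r was 0.701 to 0.709 for the genes like Apom. It was 0.865 to 0.903 for those like Apoa4 and 0.918 to 0.950 for those like Apob. The 4 coding genes tested within 3 places of Apom on chromosome 17 differed by -0.20 to 0.11 between transgenic and high-fat wild-type mice, and none was called.

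The other apolipoprotein genes and the partners of the pathway were read from lists. Of 9 other apolipoprotein genes tested, 1 was called between transgenic and high-fat wild-type mice (median 0.20). At an unadjusted p under 0.05 there were 5 of these 9, all higher. The called gene was Saa1, an acute-phase protein carried on high-density lipoprotein. It averaged 18366 ± 6519 in transgenic and 4648 ± 2834 in high-fat wild-type mice (SD, n = 4 each) and rose by 2.07 ± 0.37 (limma adjusted p = 0.0465). At an unadjusted p under 0.05 in this comparison stood 1 of 10 members (Apom) and 13.7% of all genes, the share against which the unadjusted counts of the lists are to be read. Of 14 genes of particle assembly and Apob editing tested, 0 were called (median -0.00, 2 at an unadjusted p under 0.05): Tm6sf2, a factor of lipoprotein lipidation, differed by 1.31 ± 0.28 (adjusted p = 0.0760) and Pdia3 by 0.37 ± 0.11 (0.184). Of 11 receptor and uptake genes 0 were called (median 0.07, 2 unadjusted), and the smallest p-values were those of Sdc1 (0.43 ± 0.11, adjusted p = 0.126) and Lsr (0.68 ± 0.18, 0.127). Among lipases, lipid transfer and efflux genes 0 of 15 were called (median 0.03, 2 unadjusted), with the lipase inhibitor Angptl4 at 0.68 ± 0.19 and endothelial lipase Lipg at -0.68 ± 0.28.

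Of 23 transcription regulators, 0 were called (median -0.05, 3 unadjusted), with the coactivator Ppargc1a at 0.82 ± 0.28 (adjusted p = 0.228) and Cebpb at 0.40 ± 0.16 (0.300). Of 20 other hepatocyte secreted proteins 0 were called, although 19 were above 0 and 9 had an unadjusted p under 0.05 (median 0.22). Itih1 (0.42 ± 0.087, adjusted p = 0.0683) and Fgb, a fibrinogen chain (0.36 ± 0.11, 0.184), had the smallest p-values. The median of the secreted proteins, 0.22, and that of the apolipoproteins, 0.18, were given by the same arrays and are set side by side as values.

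By diet, none of these lists held a called gene. Mttp, the transfer protein that loads Apob with lipid, differed by -0.57 ± 0.15 (limma adjusted p = 0.497) and averaged 3238 ± 528 in high-fat and 4771 ± 250 in normal-diet wild-type mice (SD, n = 4 and 3). Cd36, a fatty acid receptor, differed by 1.91 ± 0.60 (adjusted p = 0.606), the lipoprotein phospholipase Pla2g7 by 1.74 ± 0.41 (0.375) and Saa1 by 1.82 ± 0.40 (0.364). Between transgenic and normal-diet mice Saa1 (3.90 ± 0.40), Saa2 (4.32 ± 0.75), Pdia3 (0.68 ± 0.12), Lsr (0.87 ± 0.20), Pla2g7 (2.20 ± 0.41) and Itih1 (0.50 ± 0.094) rose, with adjusted p of 0.00118 to 0.0456. Saa1 and Saa2 are close sequence relatives whose probe sets may share signal.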

How the data were processed

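Per the labels' protocols, cDNA primed with poly-dT from total liver RNA was transcribed into biotin-labelled cRNA, which was read on 1 oligonucleotide array per mouse. The deposited intensity values are linear signals; the submitters' processing notes name MAS5, with no version. No detection calls or probe-level data were used here, so saturation was not judged, and the number of arrays limits the precision.

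Groups came from the sample titles. Of 22690 probe sets, 20380 had 1 gene symbol in the platform annotation. Values under a signal of 1 (1386 values, 0 of them of members) were set to 1 before log2. The lowest 40% of probe sets by mean log2 signal (under 53.0) were left out and the brightest probe set stood for each gene, giving 7924 genes, among them all 10 members. Tests used limma 3.58.1 in R 4.3.3 (lmFit, eBayes with trend) with 11 arrays in 1 fit and Benjamini-Hochberg adjustment at 0.05. Other probe sets were tested over all 20380 without the filter. Exact permutation tests enumerated all splits of the arrays compared; correlations used 100000 permutations. The fit was tested on simulated data.

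The members, lists and alternatives were chosen with earlier results of these data known. All members are named; list genes are named when past the threshold, otherwise as examples among the 2 of smallest p. Genes of like pattern are given for the 3 members of largest SD. Alternatives were quantile normalization, 2 centrings, log2(signal + 32), other filters, other summaries of probe sets, eBayes without trend, array weights, fewer groups, a replicate block and left-out arrays. The fit without transgenic arrays 1 and 2 was added after seeing the data. One motif that was planned is not reported here.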

Additional observations from a re-analysis of the deposited data

Results flagged for a closer look

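One of 30 group values tested for an array standing apart did so: Apoa2 in high-fat wild-type mice, where array 3 read 28218 and the other 3 arrays 23263 to 23926. Its gap to the nearest array was 0.866 of the range of the group. Chance marks about 1 in 20 groups. On the same array the mean of the other brightest probe sets was 0.05 above its 11-array mean, and its part in the Apoa2 value was not tested.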

How the results depend on the processing

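Values of single members kept direction and side of the threshold in 681 of 750 combinations of 30 results with 25 alternatives, and 41 reversed, none of them a called value. Between transgenic and high-fat wild-type mice the count of called members was 0 in place of 1 after centring on other bright probe sets or on secreted proteins, with no filter, over all probe sets, in eBayes without trend, with the replicate block and without transgenic arrays 3 and 4, and 0 to 1 with 1 array left out. Without transgenic arrays 1 and 2 that count stayed at 1, but the called member was Apoa2 and no longer Apom. Between transgenic and normal-diet mice the count was 0 in place of 1 after either centring and without transgenic arrays 3 and 4, 4 without transgenic arrays 1 and 2 (Apoa1, Apoa2, Apoa4 and Apoc2), and 0 to 1 with 1 array left out. The causes were not tested. The fit without transgenic arrays 1 and 2 was added after seeing the data. Those arrays held the lower transgenic values of Apoa1, Apoa2 and Apoa4, so its calls of these genes are no evidence of a rise. The share of all genes called in that fit is not given here. By diet the count of called members was 0 under each alternative.

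With the replicate block Apom kept 0.74 between transgenic and high-fat wild-type mice, at adjusted p = 0.0786, and Apoc2 kept 0.68 between transgenic and normal-diet mice (0.0425). Same-numbered arrays had deviations correlating at 0.0842 to 0.292, -0.0721 to 0.0287 and -0.0592 to 0.111 in the transgenic, diet and transgenic against normal-diet comparisons. Differently numbered arrays were not correlated, so these values cannot tell whether the numbers mark a pairing. The labels do not say so either, and the main fit treated the arrays as unpaired.

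Reversed values between transgenic and high-fat wild-type mice were, under quantile normalization, Apoa5 -0.062, Apoc1 -0.051 and Apoc3 -0.059 (Apoa1 was 0); centred on bright probe sets, Apoa5 -0.0096 and Apoc3 -0.0018; centred on secreted proteins, Apoa1 -0.037, Apoa5 -0.14, Apob -0.016, Apoc1 -0.12, Apoc2 -0.035 and Apoc3 -0.13; without transgenic arrays 3 and 4, Apoa1 -0.065, Apob -0.24, Apoc1 -0.051 and Apoc3 -0.10; and without arrays 1 and 2, Apoa4 0.67. By diet they were Apoa2 -0.039 and Apoe -0.028 (quantile) and Apoe -0.011 (secreted proteins). Between transgenic and normal-diet mice they were Apoa5 -0.15 and Apoc3 -0.016 (quantile), Apoa5 -0.092 (bright), Apoa1 -0.014, Apoa5 -0.24, Apoc1 -0.027, Apoc3 -0.11 and Apoe -0.00093 (secreted), and Apoa4 -0.068, Apob -0.15 and Apoc3 -0.021 (without arrays 3 and 4).

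With 1 array left out the reversals ranged, by diet, from -0.015 to 0.13 for Apoa2, -0.099 to 0.0058 for Apoa5, -0.27 to 0.30 for Apob and -0.035 to 0.093 for Apoe. Between transgenic and high-fat wild-type mice Apoa4 ranged from -0.61 to 0.19 and Apob from -0.0065 to 0.37, and between transgenic and normal-diet mice Apoa5 from -0.015 to 0.080 and Apob from -0.069 to 0.50. Without normal-diet array 3, Apom between transgenic and normal-diet mice was 0.62 and past the threshold (adjusted p = 0.0352).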
